A study of Mus musculus with 4 samples.

Results

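Translation initiation factors are the proteins that bring the ribosome to an mRNA and set it at the start codon. The eIF2 complex carries the initiator tRNA to the small ribosomal subunit, with eIF1, eIF1A, eIF3 and eIF5 holding the assembly together. The eIF4 factors bind the cap of the mRNA, unwind its leader and connect it to eIF3, and eIF5B then joins the large subunit. eIF2B reloads eIF2 with GTP after each round. In the testis this step is known as a point of control, because spermatids make many of their mRNAs long before they translate them, and polyamines are known to bind ribosomes and RNA.

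The genes described here are 40 listed Eif genes of mouse, taken by name and not by any measured value. The genes of eIF5A and Eif3i were left out of that list. They were measured in whole testes of Azin2 KO and Azin2 WT mice by 4 arrays of the Affymetrix Mouse Gene 1.1 ST design, with 2 per genotype. Each array carried pooled testis RNA of 3 mice, aged 3 to 4 months per the study's methods. The KO mice were of a C57BL/6 mixed background and carried a β-Geo cassette within the Azin2 locus, and no other strain was named for the WT mice. Azin2 encodes antizyme inhibitor 2, a protein that frees ornithine decarboxylase, the enzyme of putrescine synthesis, from its antizymes. The study compared the genotypes to look for effects of the loss of this protein on testis gene expression.

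Of the 40 genes, 35 had a value of their own, out of 18820 genes with a value in the series. Eif1, Eif2s1, Eif3g and Eif4g1 have no probe set under their name in the annotation at hand and were not analysed here. Eif3j1 was measured only by probe sets that it shares with its near copy Eif3j2, and it is given apart from the 35. Values are log2 signals from RMA. It removes background, gives the probes of every array the same distribution and then combines those of a probe set. The combined values can still differ slightly in distribution between arrays. Among the probe sets paired with a gene alone, the brightest on average gave its value, and probe sets shared with another gene were not used for it. A p-value here sets the difference against the spread between 2 pools of each genotype, and the number of arrays limits the precision of every value. The limma test draws the spread of each probe set toward a common value estimated from all named probe sets. Its p-values, standard errors and intervals rest on that moderated spread.

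In these arrays Azin2 was at 7.36 and 7.14 in the KO pools and at 10.16 and 9.998 in the WT pools. This was a difference of -2.83 on the log2 scale (standard error 0.10, adjusted p = 0.0250 from limma), in the direction of the labels. Without WT replicate 1 or WT replicate 2 it was -2.75 and -2.91, and the adjusted p was 0.294 and 0.232. The 5 measured spermatid markers had mean signals at or above the percentile 94.8 of all genes, and the protamine gene Prm1 had a mean log2 signal of 12.36. The epididymis markers Adam28 and Lcn5 were dim, at 4.62 and 5.29, against array medians over all probe sets from 6.08 to 6.11. No measured marker gene of the germ cell, Sertoli, Leydig, macrophage, red blood cell or epididymis lists passed an adjusted p or an unadjusted p of 0.05 from limma. The markers Prm2, Insl3, Hba-a1, Hbb-bt, Defb2 and Crisp1 had no value. The red blood cell list was thus measured by Alas2 alone, and the epididymis list by Adam28 and Lcn5 alone. All 5 macrophage markers lay below 0 in the KO minus WT difference, from -0.25 to -0.15. The 4 measured Leydig markers also lay below 0, from -0.14 to -0.02. Of the 5 Sertoli markers, 4 lay above 0, and each germ cell list had genes on both sides of 0. The 95% confidence intervals were wide, reaching -0.85 in the macrophage list and -0.74 in the Leydig list. Whether these differences bear on the values of the initiation factor genes was not tested. In whole testis, fewer cells of a type and less RNA per cell cannot be told apart.

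No initiation factor gene passed the test for a difference between KO and WT testes. Of the 35 genes, 0 passed an adjusted p of 0.05 (limma with the Benjamini-Hochberg adjustment), where 0.00531% of all genes, Azin2 alone, did so. At an unadjusted p under 0.05, 0 of the 35 passed, against 3.95% of all genes. At a fold of 1.5 with that p, 0 of the 35 passed as well, against 0.0956% of all genes. The differences ran from -0.14 for Eif3a to 0.12 for Eif2s3x on the log2 scale, so that the largest was a change of 10.5% in signal. Their median was 0.01, and the median of all genes was also 0.01. The genes were above 0 in 22 cases and below 0 in 13, while of all 18820 genes 10654 were above 0 and 8166 below.

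A p that misses the threshold does not show that KO and WT levels were equal, so the intervals are given. The 95% confidence interval of the difference lay within a fold of 1.5 in either direction for all 35 genes, and for 97.96% of all genes. For 32 of the 35 it also lay within a fold of 1.2, against 72.3% of all genes. The exceptions were Eif3a, Eif3m and Eif4e3, whose intervals reached -0.34, 0.34 and -0.27. The median standard error was 0.059. In 30 of the 35 genes (85.7%) the gap between the 2 pools of one genotype was larger than the difference between the genotype means, as it was in 79.0% of all genes.

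**Figure D1:**
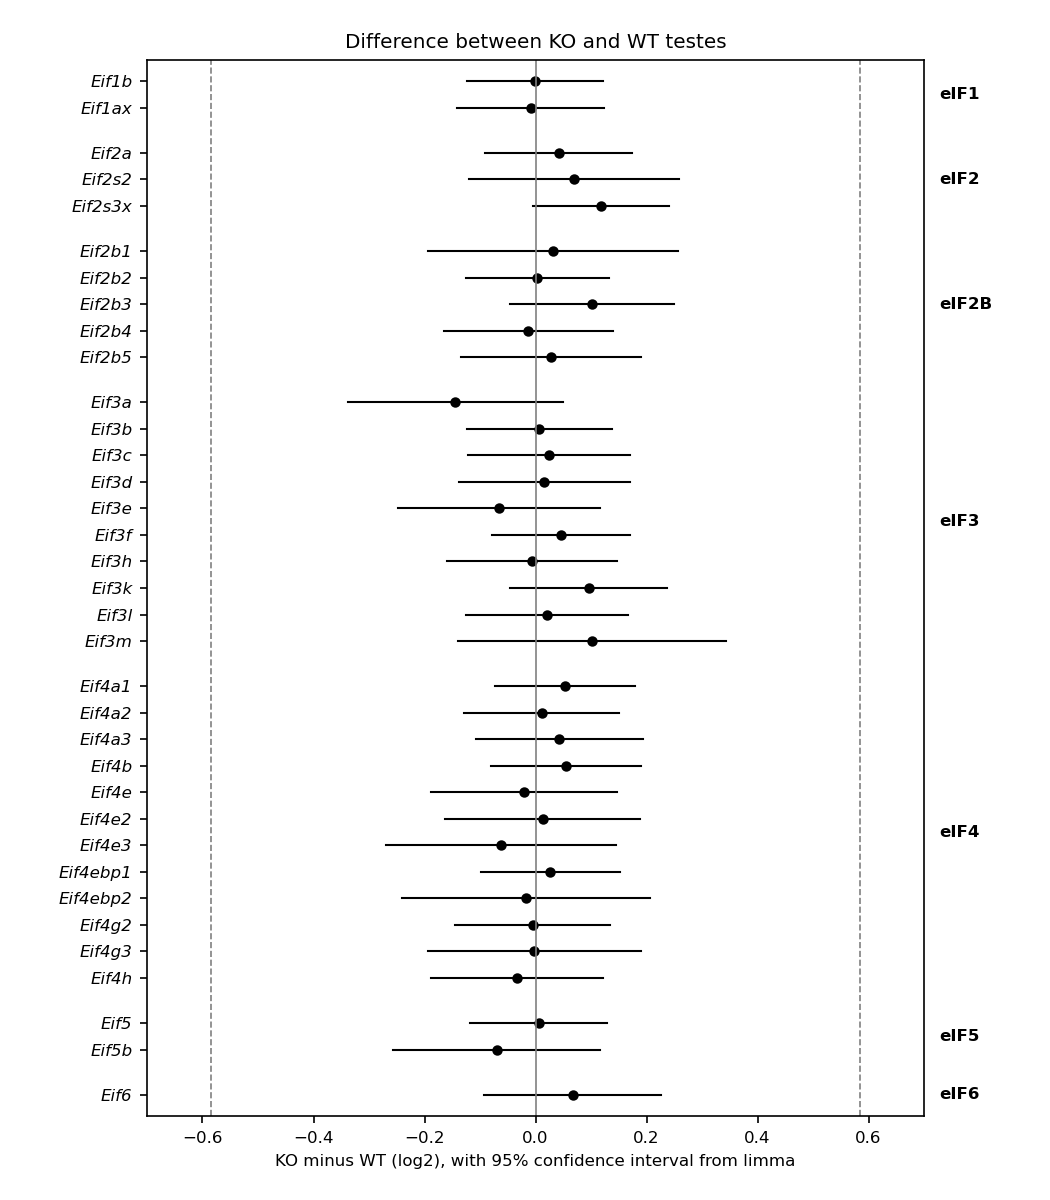
Difference between KO and WT testes (horizontal axis, log2) for the 35 initiation factor genes with a value of their own, grouped by complex. Points are limma estimates, lines are 95% confidence intervals and dashed lines mark a fold of 1.5; every interval stays inside the dashed lines, with the lowest estimate at -0.14 (Eif3a) and the highest at 0.12 (Eif2s3x).

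The promoters of these genes were searched for sequence features that did not enter the choice of the list. Promoter sequences of GRCm38.p6 were taken from RefSeq for 33 of the 40 genes, each from 250 bases before to 50 bases after the start. The letters CCGGAAG, the core that ETS family transcription factors bind, occurred on either strand in 11 of the 33 (33.3%). They occurred in 13.7% of the 14749 promoter-matched genes with a value on the arrays, and these shares were not tested against each other. Most of the listed genes, 22 of the 33, lacked the letters. A stretch of 30 bases around the match is shown for members of eIF2B, eIF3 and eIF4, to let the shared letters be compared, with CCGGAAG or its reverse complement CTTCCGG in capitals and each written along the strand of its gene:
Eif2b4, chr5:31193120-31193149, minus strand: cccagtgcacgCCGGAAGttgtagtccgct
Eif3d, chr15:77970876-77970905, minus strand: gctgtgacacaCTTCCGGttgtgtctcact
Eif3l, chr15:79075177-79075206, plus strand: gctgggcgggaCTTCCGGtccggccaagca
Eif4e2, chr1:87213905-87213934, plus strand: tcgccagccaaCCGGAAGtagccgggccct
The match began at base 2 of the transcript in Eif2b4 and at base 6 in Eif4e2, and it lay from 70 to 64 bases before the start in Eif3d. These letters say nothing of whether a factor binds there.

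mRNAs of the translation machinery are also known for a start called the TOP motif, a C followed by a run of C or T, through which mTOR signalling controls their translation. A C at the start followed by at least 4 bases that are each C or T was found in 2 of the 33 genes (6.06%), against 2.82% of the matched genes. These were the genes of the eIF2 subunit γ and of eIF3f, shown with the run from the start site in capitals:
Eif2s3x, chrX:94212631-94212660, minus strand: agcattttcCTTTTCTCTCCgagcaagatg
Eif3f, chr7:108934406-108934435, plus strand: ctaggctctCTCTCTTTCTCggcaagatgg
The search read only the annotated start, and starts a few bases away were not examined. Between KO and WT testes, the 10 genes with the ETS core that had a value ranged from -0.02 to 0.10 on the log2 scale, with a median of 0.0081. The 18 genes without it ranged from -0.14 to 0.12, with a median of 0.03. The ranges overlapped. Eif3f and Eif2s3x, the genes with the TOP motif, differed by 0.05 and 0.12. No test was made between these groups of genes.

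The signal of a probe set depends on its probes as well as on the mRNA, so levels are given for each gene and no order between genes is drawn from them. All 35 genes were brighter than the median of all probe sets in each of the 4 arrays. That median includes the unnamed probe sets. Among genes with a value, Eif4e3 was at percentile 48.6, below the median gene. Mean log2 signals ran from 6.91 for Eif4e3, an alternative cap-binding protein, to 11.55 for Eif5, which triggers GTP hydrolysis on eIF2. By complex, the means lay between 9.60 and 11.09 for the 2 measured genes of the eIF1 group, 8.38 and 10.63 for 3 of the eIF2 group, and 8.42 and 9.35 for the 5 eIF2B genes. They lay between 9.15 and 11.50 for 10 eIF3 genes, 6.91 and 11.46 for 12 eIF4 genes, and 9.18 and 11.55 for Eif5b and Eif5. Eif6, which keeps the large subunit from joining too early, was at 10.11.

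**Figure D2:**
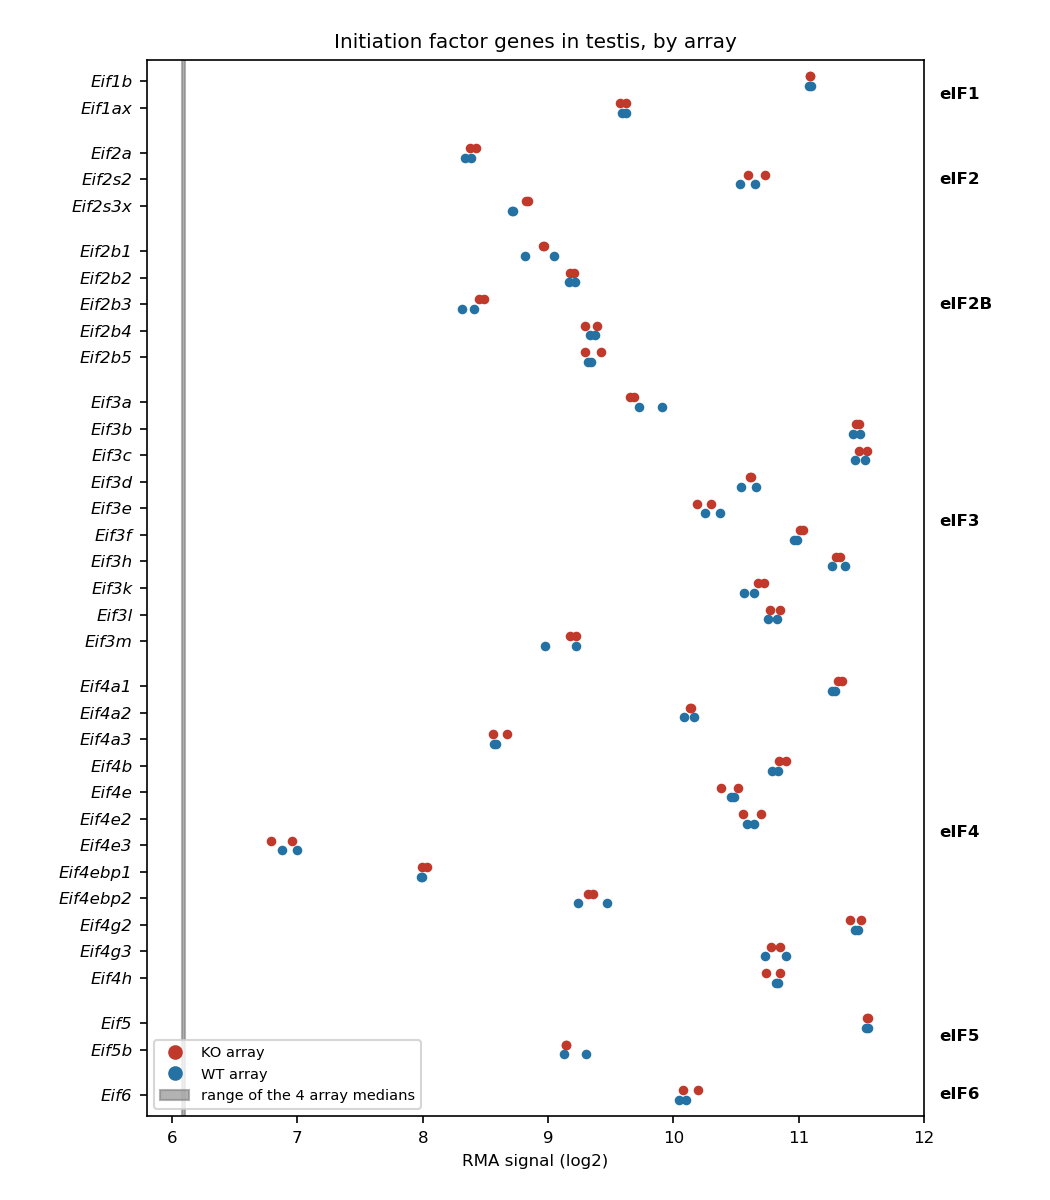
RMA signal (horizontal axis, log2) of the 35 initiation factor genes, with 1 point for each array, KO in red and WT in blue, grouped by complex. The grey band marks the median of all probe sets in each of the 4 arrays (6.08 to 6.11). All points lie to its right, and the red and blue points of a gene lie close together.

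The eIF1 group holds the small factors that watch over start codon choice. Eif1b, a copy of eIF1, was at log2 signals of 11.09 and 11.09 in the KO pools and 11.10 and 11.08 in the WT pools. All 4 arrays were within 0.02 of each other, and the difference was -0.0010 (95% confidence interval -0.12 to 0.12). Eif1ax, the X-linked gene of eIF1A, was at 9.63 and 9.57 in KO and 9.59 and 9.63 in WT testes. Its KO and WT pools overlapped (difference -0.0089, standard error 0.05).

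The eIF2 group was measured by 3 genes, and all 3 differences were above 0 without passing the test. Eif2s3x, the X-linked gene of the subunit γ that binds the initiator tRNA, was at 8.84 and 8.83 in the KO pools and 8.71 and 8.72 in the WT pools. Both KO pools lay above both WT pools, by a margin wider than the gap between the pools of one genotype. The difference was 0.12 (standard error 0.05, unadjusted p = 0.0563, adjusted p = 0.9995 from limma), the smallest p of the 35 genes. With each array centred on its median, Eif2s3x passed an unadjusted p of 0.05 in limma (adjusted p = 0.982). It also passed by the ordinary equal-variance test (adjusted p = 0.903). These are exceptions to the 0 of 35 given for limma on the deposited values. Eif2s3y, the Y-linked copy that spermatogonia are known to need, is not among the 40 genes and had a difference of the other sign. It was at 8.94 and 8.86 in KO and 8.95 and 8.99 in WT testes, a difference of -0.07 (standard error 0.05).

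Eif2s2, the gene of the subunit β, was at 10.73 and 10.60 in the KO pools and at 10.53 and 10.65 in the WT pools. The pools overlapped, and the difference was 0.07 (standard error 0.07). Eif2a encodes eIF2A, a separate protein that can deliver initiator tRNA without the eIF2 complex. It was at 8.43 and 8.38 in KO and 8.34 and 8.38 in WT testes, a difference of 0.04 (standard error 0.05) with overlapping pools.

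The 5 eIF2B genes, which encode the exchange factor that the stress-induced phosphorylation of eIF2 blocks, had differences from -0.01 for Eif2b4 to 0.10 for Eif2b3. Eif2b3 encodes a subunit of the catalytic core, and it lies on chromosome 4, the chromosome of Azin2. Its log2 signals were 8.49 and 8.45 in the KO pools and 8.41 and 8.32 in the WT pools. Both KO pools lay above both WT pools, but the WT pools differed from each other by 0.10, nearly as much as the genotypes did (difference 0.10, standard error 0.06, unadjusted p = 0.135 from limma). Eif2b4 was at 9.29 and 9.39 in KO and 9.33 and 9.38 in WT testes. Its pools overlapped. Eif2b1, Eif2b2 and Eif2b5 had differences of 0.03, 0.0035 and 0.03, and the WT pools of Eif2b1 were 0.23 apart.

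eIF3 is the scaffold that joins the mRNA complex to the small subunit, and 10 of its 12 listed genes had a value. Of the 10, 7 lay above 0 and 3 below, with a median of 0.02. Eif3a, the largest subunit, had the lowest difference of the 35 genes. It was at 9.66 and 9.69 in the KO pools and at 9.73 and 9.91 in the WT pools. The KO pools were the lowest arrays, and WT replicate 2 stood 0.18 above WT replicate 1. The difference was -0.14 (95% confidence interval -0.34 to 0.05, unadjusted p = 0.113 from limma). Without WT replicate 1 it was -0.24, and Eif3a passed an unadjusted p of 0.05 there in limma (adjusted p = 0.920). Without WT replicate 2 it shrank to -0.05. With a WT array left out, the WT group is a lone array that is assumed to vary like the KO pools.

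By its brightest probe set, Eif3m, a peripheral subunit, had the highest difference of the eIF3 genes. It was at 9.23 and 9.17 in the KO pools and at 8.97 and 9.22 in the WT pools. WT replicate 1 alone was low and WT replicate 2 lay among the KO pools, so that the groups overlapped (difference 0.10, standard error 0.09). Without WT replicate 1 the difference was -0.02, and without WT replicate 2 it was 0.23 (adjusted p = 0.999 from limma), past an unadjusted p of 0.05. A further probe set of Eif3m gave -0.0023, with pools at 9.15 and 9.02 in KO and 8.98 and 9.19 in WT testes. Probe set numbers mostly follow the chromosomes of their genes. The further probe set is numbered among those of genes on chromosome 2, where Eif3m lies. The one that gave 0.10 is numbered among those of genes on chromosome 1. Which of them reads the Eif3m mRNA was not tested. In both probe sets WT replicate 1 was the lowest array.

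Among the other eIF3 genes, Eif3k was at 10.68 and 10.72 in the KO pools and 10.64 and 10.57 in the WT pools (difference 0.10, standard error 0.05). Eif3f was at 11.01 and 11.03 in KO and 10.96 and 10.99 in WT testes (difference 0.05, standard error 0.05). In both genes the KO pools lay above the WT pools, and neither passed the test. Eif3b, which carries an RNA recognition motif, differed by 0.0070, and the core subunit gene Eif3c by 0.02. Eif3d, which is known to bind the cap of some mRNAs, differed by 0.02, Eif3e by -0.07, Eif3h by -0.0062 and Eif3l by 0.02. The KO and WT pools of these 6 genes overlapped. The 2 probe sets that Eif3j1 shares with Eif3j2 differed by -0.05 and -0.0082, with overlapping pools.

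The eIF4 group was evenly divided, with 6 of its 12 measured genes above 0 and 6 below, and a range from -0.06 for Eif4e3 to 0.06 for Eif4b. Eif4a1, the main RNA helicase of the group, was at 11.32 and 11.35 in the KO pools and 11.29 and 11.27 in the WT pools. Its KO pools lay above its WT pools (difference 0.05, standard error 0.05). Its paralogue Eif4a2 was at 10.13 and 10.14 in KO and 10.09 and 10.17 in WT testes (difference 0.01), and the pools overlapped. Eif4a3, a helicase of the exon junction complex rather than of initiation, was at 8.67 and 8.56 in KO and 8.57 and 8.58 in WT testes. Its difference was 0.04, also with overlapping pools. Eif4b and Eif4h encode cofactors of the helicase. Eif4b was at 10.90 and 10.84 in KO and 10.83 and 10.79 in WT testes, and its KO pools lay just above its WT pools. Eif4h differed by -0.03, and its pools overlapped.

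In the cap-binding genes the KO and WT pools overlapped. Eif4e, which encodes the main cap-binding protein, was at 10.52 and 10.38 in the KO pools and at 10.46 and 10.48 in the WT pools (difference -0.02, 95% confidence interval -0.19 to 0.15). A further, dimmer probe set of Eif4e was at 7.18 and 7.24 in KO and 7.21 and 7.21 in WT testes. Eif4e2, the gene of a relative that represses translation, was at 10.70 and 10.55 in KO and at 10.58 and 10.64 in WT testes (difference 0.01). Eif4e3 was at 6.96 and 6.79 in KO and 6.996 and 6.88 in WT testes (difference -0.06, standard error 0.08). In the gene values of all 3, KO replicate 1 lay above KO replicate 2 by 0.14 to 0.17, more than the genotypes differed.

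Eif4ebp1 and Eif4ebp2 encode the proteins that hold eIF4E inactive until mTOR phosphorylates them. Eif4ebp1 was at 7.998 and 8.04 in the KO pools and 7.99 and 7.99 in the WT pools (difference 0.03, standard error 0.05). Eif4ebp2 was at 9.32 and 9.36 in KO and 9.47 and 9.24 in WT testes (difference -0.02, standard error 0.09). The KO pools of Eif4ebp1 lay just above its WT pools, whereas the WT pools of Eif4ebp2 were on either side of its KO pools. Eif4g3 encodes the scaffold that spermatocytes are known to need to leave meiotic prophase, and it lies on chromosome 4 as well. It was at 10.78 and 10.85 in KO and 10.73 and 10.90 in WT testes, a difference of -0.0021 (95% confidence interval -0.19 to 0.19). Eif4g2, which encodes a scaffold that does not bind eIF4E, was at 11.49 and 11.41 in KO and 11.45 and 11.47 in WT testes (difference -0.0048). The pools of both scaffold genes overlapped.

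The last group acts after the start codon is found or on the free large subunit. Eif5 was at 11.55 and 11.55 in the KO pools and 11.53 and 11.56 in the WT pools, a difference of 0.0055 (standard error 0.05). Eif5b was at 9.15 and 9.14 in KO and 9.13 and 9.30 in WT testes, with WT replicate 2 above the other 3 arrays (difference -0.07, standard error 0.07). Eif6 was at 10.20 and 10.08 in KO and 10.10 and 10.05 in WT testes, with KO replicate 1 above the others (difference 0.07, standard error 0.06). For Eif5, Eif5b and Eif6 the pools of KO and WT overlapped.

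In all, both KO pools lay above both WT pools in 7 of the 35 genes, against 20.3% of all genes. These were Eif2s3x, Eif2b3, Eif3f, Eif3k, Eif4a1, Eif4b and Eif4ebp1. Eif3a was the 1 gene of the 35 in which the KO pools were the lower ones without overlap, against 12.2% of all genes. KO replicate 1 was the highest of the 4 arrays in 15 of the 35 genes, while it was the highest in 27.9% of all genes. Relative to each gene's mean of all arrays, the 35 genes had a median of 0.02 in KO replicate 1. The medians of KO replicate 2, WT replicate 1 and WT replicate 2 were -0.0032, -0.01 and -0.0078. KO replicate 1 lay above KO replicate 2 in 24 of the 35, with a median gap of 0.03, wider than the median of 0.01 between the genotypes. That count and that gap were not computed for all genes.

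**Figure D3:**
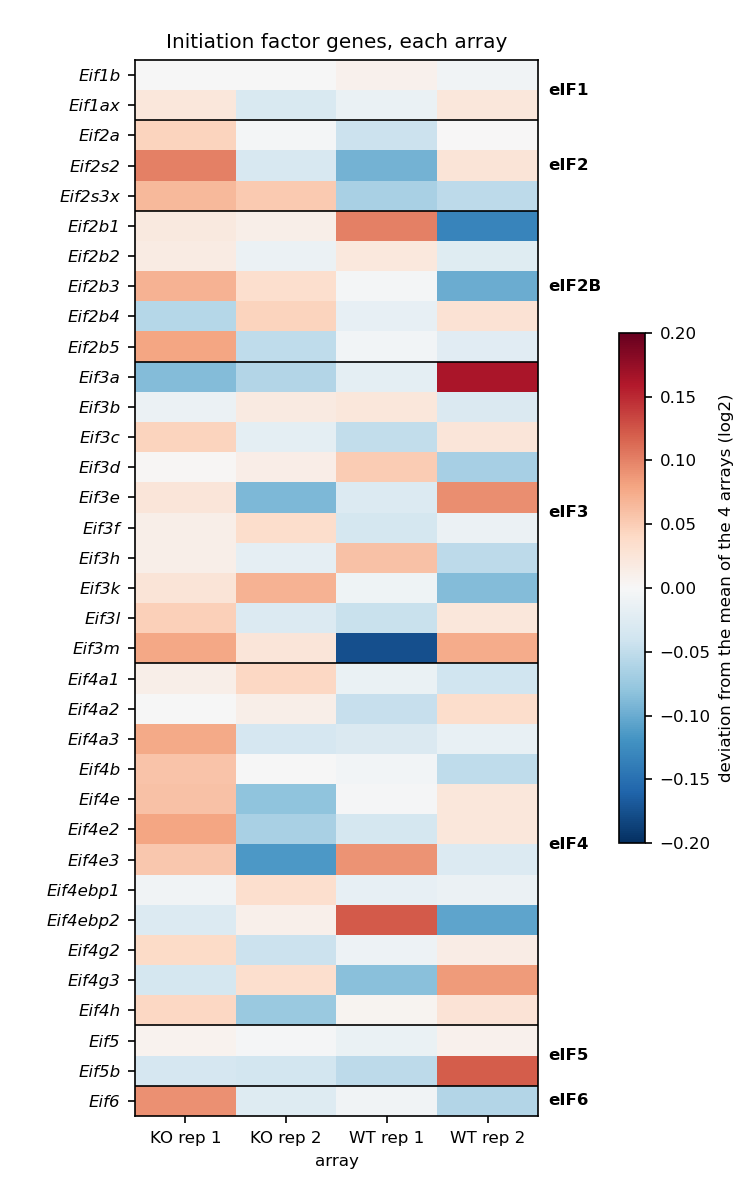
Deviation of each array (columns) from the mean of the 4 arrays (colour, log2) for the 35 initiation factor genes (rows, by complex). Red is above and blue below that mean; KO replicate 1 is the highest array in 15 genes, and the darkest cells are WT replicate 2 of Eif3a and WT replicate 1 of Eif3m.

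The probe sets of a gene differed in sign only in Eif3h, by small amounts, and in Eif3m. In all, 49 probe sets were paired with the listed genes, 43 of them with that gene alone, and 6 genes had more than 1 probe set of their own. The 3 probe sets of Eif4a1 differed between KO and WT testes by 0.05 each. Those of Eif4e differed by -0.02 and -0.00037, those of Eif2s2 by 0.07 and 0.01, and those of Eif3h by -0.0062 and 0.0074. Mean log2 signals were 10.46 and 7.21 for Eif4e, 10.63 and 8.74 for Eif2s2, and 11.31 and 8.28 for Eif3h. The level given for these genes thus depended on the probe set, and which one reads the mRNA best was not tested. By their numbers, the probe sets used for Eif4e, Eif2s2, Eif3m and Eif4a1 fall among those of genes on chromosomes X, 8, 1 and 19. The genes themselves lie on chromosomes 3, 2, 2 and 11. Whether these probe sets read copies elsewhere in the genome was not tested. The 3 probe sets of Eif3c differed by 0.02, 0.04 and 0.19. The last of these is dim, with a mean log2 signal of 6.17, and was singled out after its values were seen. It was at 6.32 and 6.22 in KO and 6.02 and 6.131 in WT testes (unadjusted p = 0.0341, adjusted p = 0.9995 from limma), whereas the bright probe set of Eif3c was at 11.55, 11.48, 11.45 and 11.53. Probe sets shared with other genes gave 0.08 for Eif4a2 with Rfc4, 0.06 and 0.06 for Eif4a3 with its copy Eif4a3l1, and -0.0054 for Eif5b with Rev1.

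**Figure D4:**
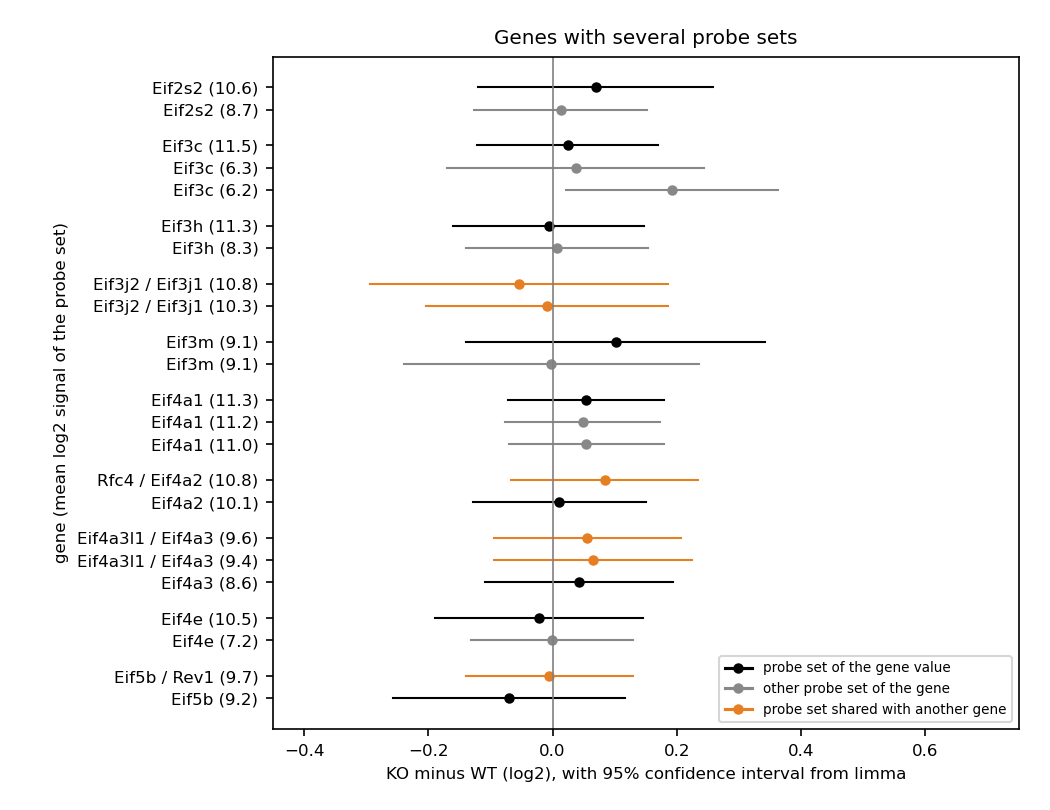
Difference between KO and WT testes (horizontal axis, log2) for each probe set of the genes that have several, with the mean log2 signal of the probe set in parentheses. Black marks the probe set that gave the gene value, grey the other probe sets of that gene and orange those shared with another gene; lines are 95% confidence intervals from limma, and the dim probe set of Eif3c at 0.19 is the one whose interval leaves out 0.

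None of the other listed genes of translation passed the test either. Of 62 such genes, 57 had a value, and 0 passed an adjusted p of 0.05 or an unadjusted p of 0.05 from limma, against the 3.95% of all genes at the latter. Their differences ran from -0.11 to 0.08, with a median of -0.0093. The KO pools lay below the WT pools without overlap in 19 of the 57 (12.2% of all genes did so), and above them in 3 (20.3% of all genes). Further initiation genes (24 with a value, 11 above 0) ran from -0.11 for Mcts1, which helps ribosomes reinitiate, to 0.08 for Eif1ad. Mcts1 was at 4.55 and 4.62 in the KO pools and 4.63 and 4.75 in the WT pools, and its signal was dim. Pabpc1, the poly(A)-binding protein, differed by -0.02, and its testis-expressed copy Pabpc2 by 0.01. D1Pas1, the testis helicase made from a copy of Ddx3x, differed by -0.07 with overlapping pools.

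The eIF2 kinases and the stress response downstream of eIF2 (12 genes with a value, 5 above 0) ran from -0.10 for Ppp1r15a, which helps to dephosphorylate eIF2, to 0.04 for Gcn1, which activates a kinase of eIF2. Ppp1r15a was at 6.36 and 6.41 in the KO pools and 6.44 and 6.52 in the WT pools. Its KO pools lay below its WT pools, with an unadjusted p of 0.134 from limma. The kinase genes Eif2ak1, Eif2ak2, Eif2ak3 and Eif2ak4 differed by 0.00034, -0.06, -0.08 and -0.07. Atf4, the transcription factor whose translation rises under stress, differed by 0.0021, and its target Asns by -0.04. None of these genes passed the test.

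Of the genes that control eIF4E through mTOR and the Mnk kinases, 10 had a value and 6 lay above 0. Mtor had the lowest difference, with KO pools at 10.42 and 10.35 and WT pools at 10.41 and 10.57 (difference -0.10, standard error 0.07). Mknk1, a kinase of eIF4E, had the highest at 0.05. Mtor and Mknk1 lie on chromosome 4, as Azin2, Eif2b3 and Eif4g3 do, and so do Pabpc4 and Ncbp1 of the further initiation genes. Whether lying on the chromosome of Azin2 bears on any of these differences was not tested. Larp1, which binds TOP mRNAs under mTOR, is counted with the further initiation genes and differed by 0.05. The pools of Mtor overlapped between the genotypes, as the WT pools were 0.15 apart. The 11 genes of elongation and termination ran from -0.09 for Eef2k, the kinase that blocks elongation factor 2, to 0.04 for Eef1b2. The elongation factor genes Eef1a1 and Eef2 differed by -0.0059 and -0.02.

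**Figure D5:**
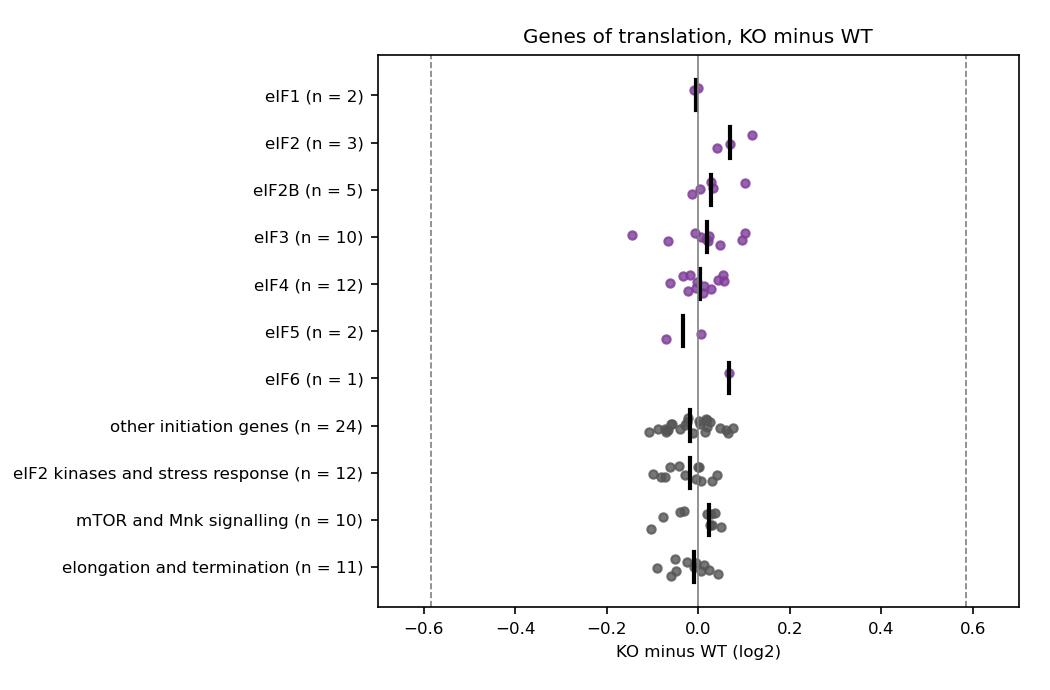
Difference between KO and WT testes (horizontal axis, log2) of the initiation factor genes by complex (purple) and of 4 lists of other translation genes (grey). A point stands for 1 gene, a black bar for the median of a row, and dashed lines mark a fold of 1.5; all points lie between -0.14 (Eif3a) and 0.12 (Eif2s3x).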

How the data were processed

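RNA pooled from the testes of 3 mice was hybridised to each of 4 Affymetrix Mouse Gene 1.1 ST arrays, 2 for KO and 2 for WT. The authors deposited log2 signals from RMA, made with Partek 6.13.1224 per the submitters' processing notes. RMA brings the probes of all arrays to one distribution, so a change shared by most genes cannot be seen. The genome build and annotation version are not given in the sources used here. Of 35556 probe sets, 23099 were named through the platform annotation, and 12457 unnamed here were left out.

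KO and WT were compared with limma 3.58.1 in R 4.3.3 (lmFit and eBayes) on the deposited log2 values, with Benjamini-Hochberg adjustment over the 23099 probe sets. The script was tested on simulated data. The labels do not say that the numbered pools are paired. The 22 genes given array by array were the highest and lowest difference of each complex, the paralogue families of eIF1, eIF4A, eIF4E, the eIF4E-binding proteins and eIF4G, and genes whose probe sets disagreed in sign by over 0.1. Of each other list of translation genes the highest and lowest were named, and the marker lists were given only in part. Eif2s2, Eif3f, Eif3k and the further genes given with values were added after their values were seen. The members and lists were chosen with earlier results of these data known. The alternatives were intensity trends, an ordinary equal-variance test, quantile normalization, median centring, the choice of probe sets, a replicate block and leaving out each array. Depth does not apply to arrays, and their number limits the precision.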

Additional observations from a re-analysis of the deposited data

How the results depend on the processing

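No initiation factor gene passed an adjusted p of 0.05, or a fold of 1.5 at an unadjusted p of 0.05, under any of the 13 alternatives run. The smallest adjusted p was 0.903, by the ordinary equal-variance test. The number past an unadjusted p of 0.05 from limma was 0 with the deposited scaling. With median centring it was 1, and the ordinary equal-variance test also gave 1, Eif2s3x both times. Leaving out single arrays gave 0 to 1, with Eif3a passing without WT replicate 1 and Eif3m without WT replicate 2. In those fits the group with 1 array left is assumed to vary like the other group. That other group supplies the only spread between arrays, which limma draws toward its common value. The cause was not tested. The median difference of the 35 genes was 0.0127, ran from 0.0016 to 0.035 with each array left out, the highest without KO replicate 2, and was 0.011 with quantile normalization and 0.022 with median centring. Leaving out 1 array turned the sign of 7 to 9 of the 35 differences. Azin2 stayed at -2.83 by the ordinary equal-variance test and with every probe set adjusted for, where its adjusted p was 0.868 and 0.0707, and ran from -2.94 to -2.72 with each array left out. With the replicate block 0 initiation factor genes passed either p, the median was 0.0127, and the adjusted p of Azin2 was 0.0196, so that the block changed no call. Same-numbered pools did not deviate together (correlation -0.08). None of the other translation genes passed an adjusted p under any alternative, and 3 passed an unadjusted p by the ordinary equal-variance test. With 2 arrays for each genotype, small differences lie within the intervals given.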
